A study of Mus musculus with 16 samples.

Results

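The 8 genes described here, Sfi1, Cdc20b, 9530057J20Rik, Smyd4, Igfbp7, Elp3, Spg11 and Ube3a, were chosen by a measured value, the number of END-seq peaks per 100 kb of gene in the lists from the knockout. They are 8 of 49943 annotated genes on chromosomes 1 to 19, X and Y. END-seq locates DNA double-strand breaks by sequencing from their ends, and a peak is a short interval where such ends pile up in 1 library. The cells were cardiac myocytes, freed from mouse hearts by Langendorff perfusion, in 3 Myh6-Cre:LmnaF/F samples (cKO) and 3 wild-type samples (WT). The labels do not say that each sample came from its own animal, so the spread between samples may be technical. In cKO myocytes, Cre driven by the promoter of the cardiac myosin gene Myh6 removes the floxed Lmna gene, which encodes lamin A and C, the filament proteins that line the inside of the nuclear envelope. No group with Cre and intact Lmna is labelled, so Cre and the loss of Lmna cannot be told apart, and the labels give neither age nor sex. Peaks do not measure expression, so the cell type could not be checked against marker genes. Because knockout counts chose the genes, counts by genotype are given below as a description, with no test.

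The lists held 29743, 13630 and 22317 peaks in cKO 1 to 3, and 1345, 15458 and 8320 in WT 1 to 3; values listed for cKO 1 to 3 or WT 1 to 3 follow that order of lists throughout. No source used here gives read depth, so a gene without a peak in a short list, WT 1 above all, is not shown to be free of breaks. Peaks in the list labelled cKO 1 carry the name WT-4, as do those of WT 3. Of the 8320 intervals of WT 3, 57 recurred with identical ends in cKO 1 and 70 in cKO 2, so the 2 lists that share a name did not hold the same peaks. Counts at the 8 genes are given by list; means over the cKO lists and counts that need all 3 of them include cKO 1.

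Double-strand breaks arise during transcription, when topoisomerases cut DNA to relieve twist, and during replication and recombination. Repair pathways normally rejoin them. Where a role is known, the products of these genes do different things. Sfi1 encodes a centrin-binding protein of the centrosome, and Cdc20b a relative of Cdc20, the activator of the anaphase-promoting complex. Elp3 encodes the catalytic subunit of Elongator, which modifies transfer RNAs, Smyd4 a protein of a lysine methyltransferase family, and Ube3a a ubiquitin ligase that neurons express from the maternal allele. Igfbp7 encodes a secreted protein of the insulin-like growth factor binding family, and Spg11 encodes spatacsin, which takes part in re-forming lysosomes after autophagy. For 9530057J20Rik the gene table gives only a predicted protein, and no role is stated here.

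The genes differed in how their peaks were laid out. At Cdc20b, Smyd4, Igfbp7, Elp3 and Spg11 a few sites recurred in almost the same place in list after list, and some of them were among the strongest peaks of their lists. Sfi1 had many peaks, mostly weak, and 13 of its 22 sites were in 1 list, although 30 of its 43 peaks lay at sites shared by 2 or more lists. 9530057J20Rik had fewer, weak peaks, 11 of 13 at shared sites. Ube3a was mixed, with 1 site in all 6 lists and 5 of its 7 sites in 1 or 2 lists. Peak strength is the authors' fold over the background of the same library. It is used only to rank peaks within a list, as a percentile that runs to 100 for the strongest.

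**Figure D1:**
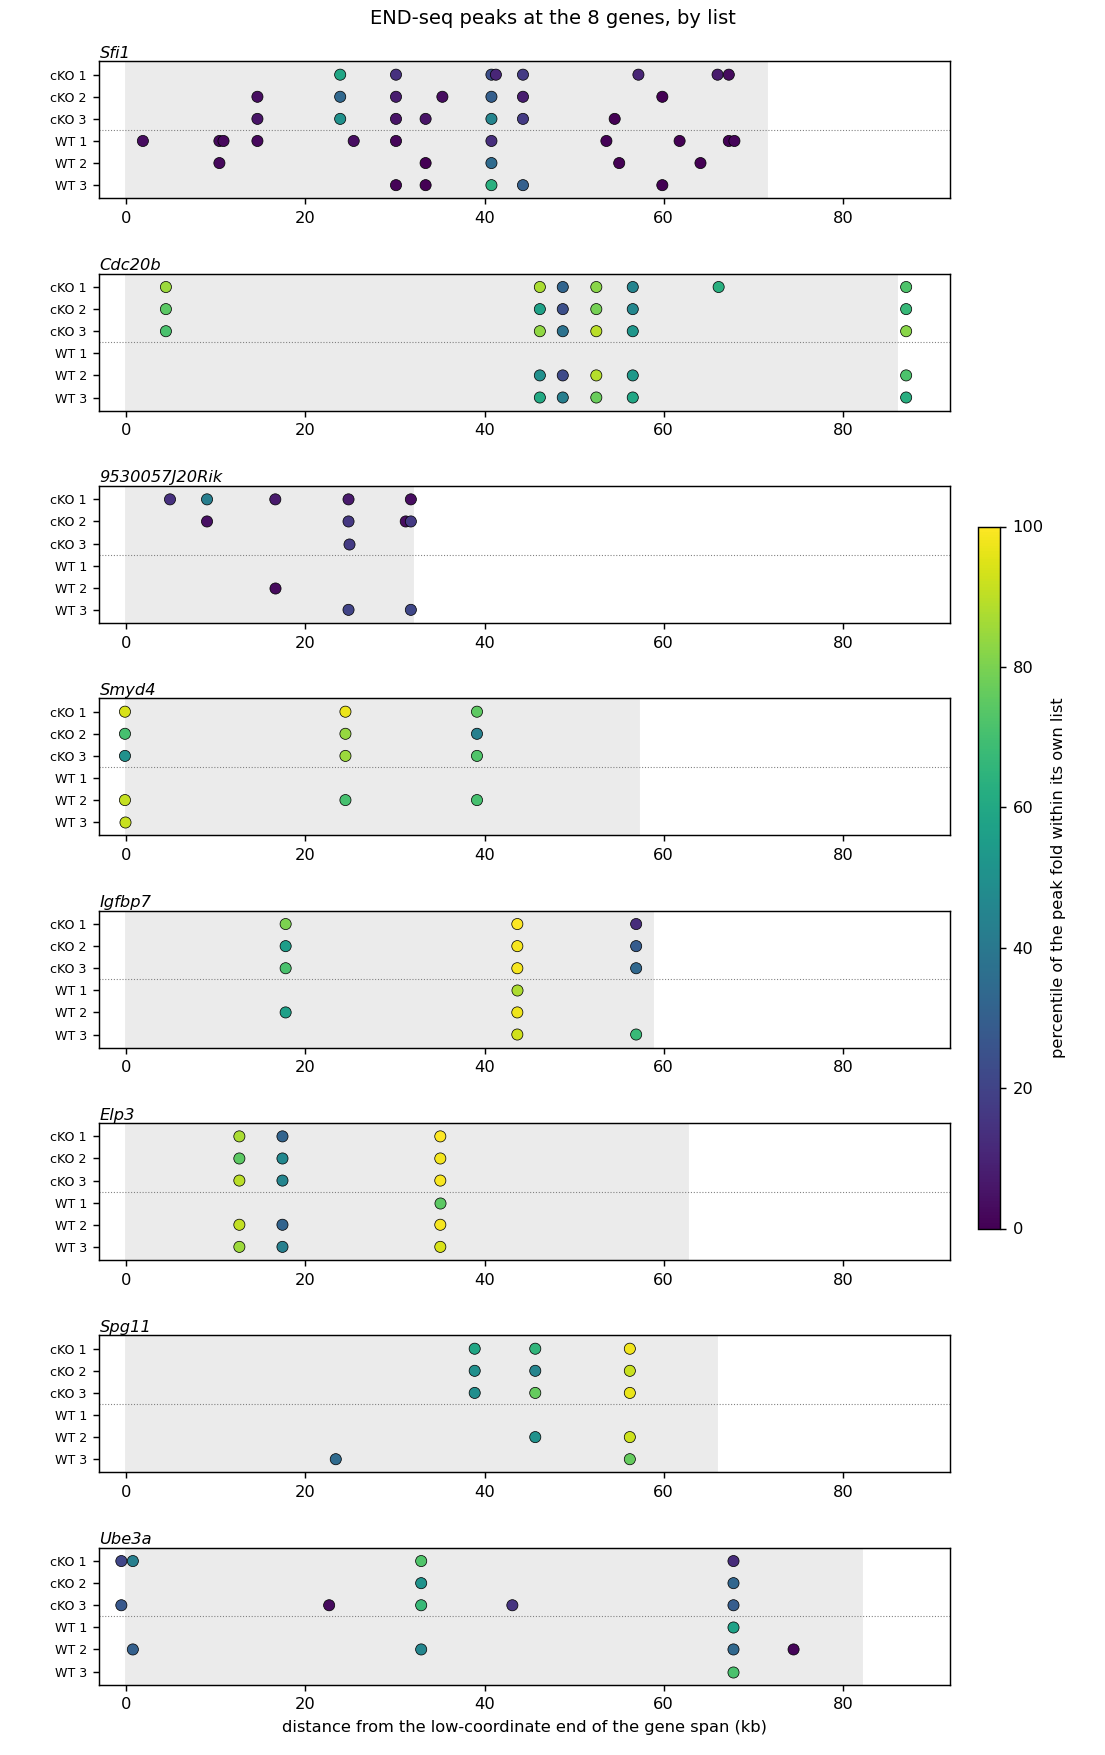
Position of every END-seq peak at the 8 genes, 1 panel a gene and 1 row a list, with distance in kb from the low-coordinate end of the gene span on the horizontal axis. The grey band is the gene span and colour gives the percentile of the peak's fold within its own list. Columns of points at Elp3, Smyd4 and Cdc20b show sites that recur, while the 22 sites of Sfi1 are scattered and mostly dark.

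Sfi1 (chromosome 11, 3131850 to 3203347, mm10, 71.5 kb) had 8, 7 and 7 peaks in cKO 1 to 3, and 11, 5 and 5 in WT 1 to 3. The ranges overlapped, and the highest count was in a WT sample, in the shortest list of all. The density was 9.98 ± 0.786 peaks per 100 kb over the cKO lists and 9.52 ± 4.71 over the WT lists (SD, n = 3 each), and 9.52 in cKO without cKO 1. Densities are per 100 kb of the gene span plus 1 kb on each side. In WT 1 the 11 peaks were 0.818% of the whole list, and Sfi1 had the highest density of all 20261 genes of at least 10 kb. The same gene took 0.0269%, 0.0514% and 0.0314% of the peaks of cKO 1 to 3, and 0.0323% and 0.0601% of those of WT 2 and WT 3.

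Most Sfi1 peaks were weak. Their median percentile was 12.4, 7.98 and 5.31 in cKO 1 to 3, and 2.08, 0.388 and 1.08 in WT 1 to 3. Of the 22 sites formed by merging the overlapping peaks of all lists, 13 were seen in 1 list, 6 of them in WT 1. A single Sfi1 site was found in all 6 lists, 40.8 kb from the low end of the gene (3172463 to 3172769), with folds of 8.93, 9.81 and 11.5 in cKO 1 to 3, and 5.24, 9.55 and 12.1 in WT 1 to 3. The strongest Sfi1 peak of each cKO list lay elsewhere, at 3155623 to 3155835, with folds of 18.6, 10.97 and 12.9 in cKO 1 to 3 and no peak in any WT list. That site was at the 59.0, 33.5 and 50.2 percentile of its lists, so it was strong for Sfi1 but ordinary for the library.

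9530057J20Rik (chromosome 8, 19903378 to 19935330, 31.95 kb) had 5, 4 and 1 peaks in cKO 1 to 3, and 0, 1 and 2 in WT 1 to 3. The single peak of cKO 3 lay below the 2 of WT 3, so the genotypes overlapped. Without cKO 1, the list with the doubtful name, its mean cKO density was 7.36 peaks per 100 kb. Folds stayed between 4.21 and 6.67 apart from 1 peak of 13.2 in cKO 1, and no peak was above the median of its list. Of its 6 sites, 1 was found in all 3 cKO lists and also in WT 3. The promoter window of this gene in the RefSeq table (GRCm38.p6, the mm10 assembly), 250 bases before to 50 after the start, begins with an unknown base, as do 5 of all 32851 windows. No source used here says how reads that match several places were treated, and its part in the weak peaks of Sfi1 and 9530057J20Rik was not tested.

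Cdc20b (chromosome 13, 113034975 to 113121019, 86.05 kb) had 7, 6 and 6 peaks in cKO 1 to 3, and 0, 5 and 5 in WT 1 to 3. Each cKO list had more than each WT list, by 1 peak where the groups came closest. The gene was chosen for its cKO counts, and the share of all genes whose counts separate this way was not measured. The density was 7.19 ± 0.656 per 100 kb over the cKO lists and 3.79 ± 3.28 over the WT lists (SD, n = 3 each), and 6.81 in cKO without cKO 1. Of its 7 sites, 5 were found in every list but WT 1, and 4 of these lay within the stretch from 46.2 to 56.5 kb from the low end of the gene. The remaining one, at 113121933 to 113122158, lay outside the gene span, beginning within 1 kb of its high end. The site at 113087339 to 113087562 had folds of 31.5, 28.5 and 35.4 in cKO 1 to 3, and 34.8 and 18.4 in WT 2 and WT 3. It ranked between the 77.1 and 89.6 percentile of those 5 lists.

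A further Cdc20b site, at 113039280 to 113039512, was found in all 3 cKO lists, with folds of 33.7, 25.9 and 21.2, and in no WT list. It ranked at the 85.0, 74.5 and 71.3 percentile of cKO 1 to 3, in the upper part of each list. Among all merged regions, 3.48% had a peak in all 3 cKO lists and no WT list, and 3 of the 55 sites at the 8 genes did (1 each in Sfi1, Cdc20b and Spg11). The site lay 4.02 kb downstream of the annotated start and 1670 bases beyond the nearest mature miRNA of the Mir449 cluster, which is transcribed from this part of Cdc20b and is known from multiciliated cells. The 4 mature strands in the RefSeq table (GRCm38.p6, plus strand) are shown to place the site, with the seed, bases 2 to 8, in capitals. The 5p strands share 1 seed.
mmu-miR-449a-5p: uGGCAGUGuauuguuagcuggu
mmu-miR-449c-5p: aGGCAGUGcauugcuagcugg
mmu-miR-449a-3p: cAGCUAACaugcgacugcucuc
mmu-miR-449c-3p: cAGUUGCUagcugcacuacccu

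Elp3 (chromosome 14, 65530446 to 65593112, 62.7 kb) had the same number of peaks in 5 lists: 3, 3 and 3 in cKO 1 to 3, and 1, 3 and 3 in WT 1 to 3. The genotypes overlapped. All 3 Elp3 sites were found in all cKO lists and in WT 2 and WT 3, and 1 of them also in WT 1. That site, at 65565354 to 65565653, had folds of 57.4, 45.8 and 54.0 in cKO 1 to 3, and 12.8, 52.7 and 34.3 in WT 1 to 3. It stood at the 98.1 percentile or above in the 3 cKO lists and in WT 2, at 94.1 in WT 3 and at 74.9 in WT 1. The distance between neighbouring Elp3 peaks was 4.8 and 17.6 kb in all 5 lists that held 3 peaks, so the layout was the same in both genotypes.

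Igfbp7 (chromosome 5, 77349240 to 77408045, 58.8 kb) had 3, 3 and 3 peaks in cKO 1 to 3, and 1, 2 and 2 in WT 1 to 3. The lowest cKO count was above the highest WT count, by 1 peak, in a gene chosen for its cKO counts. How many of all genes separate this way was not measured, so nothing is read from the gap. The strongest Igfbp7 site, at 77392748 to 77393046, was again in all 6 lists, with folds of 57.6, 47.3 and 51.0 in cKO 1 to 3, and 19.1, 48.8 and 32.4 in WT 1 to 3. It ranked at the 98.5 percentile or above in the cKO lists and at 87.5, 97.5 and 92.6 in WT 1 to 3. It lay 15.1 kb downstream of the Igfbp7 start, where the span of the non-coding RNA gene Gm34648 overlaps. The site nearest the start, 1.88 kb into the gene, was weak in cKO, at the 12.4, 28.6 and 33.4 percentile of cKO 1 to 3, and stronger in WT 3, at 67.2.

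Spg11 (chromosome 2, 122053526 to 122119434, 65.9 kb) had 3, 3 and 3 peaks in cKO 1 to 3, and 0, 2 and 2 in WT 1 to 3. Here too the groups were 1 peak apart, in a gene chosen for its cKO counts, and the share of all genes that separate so was not measured. The site at 122109603 to 122109888, 8.64 kb into the gene, was in every list but WT 1, with folds of 50.8, 37.3 and 46.5 in cKO 1 to 3 and 39.9 and 18.2 in WT 2 and WT 3. The site at 122092340 to 122092509 was in the 3 cKO lists alone, at folds of 18.6, 16.3 and 12.4, close to the median of each list, at the 59.0, 49.8 and 49.05 percentile. One weak site, at the 34.7 percentile, was in WT 3 alone.

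Smyd4 (chromosome 11, 75348433 to 75405707, 57.3 kb) had 3, 3 and 3 peaks in cKO 1 to 3, and 0, 3 and 1 in WT 1 to 3. WT 2 held all 3 sites that the cKO lists held, so the groups overlapped. The site at 75372787 to 75373011 had folds of 49.2, 31.7 and 30.5 in cKO 1 to 3 and 21.0 in WT 2. Another Smyd4 site lay at the start of the gene, at 75348139 to 75348425, with folds of 43.9, 24.1 and 12.7 in cKO 1 to 3 and 38.2 and 31.0 in WT 2 and WT 3. This was the one site of the 8 genes that overlapped a promoter window in at least 5 lists; of all 32851 windows, 0.222% overlapped a region found in 5 or 6 lists.

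The Smyd4 start site is shared with Rpa1, which encodes the largest subunit of replication protein A, the protein that coats single-stranded DNA during repair and replication. Rpa1 is transcribed in the opposite direction, and the site lies within its span, just outside that of Smyd4. The merged site covers the annotated start of Rpa1, at 75348383. The part that the peaks of all 5 lists cover ends at 75348279 and does not reach that start. The Smyd4 window is printed because peaks of 5 lists overlap it (RefSeq, GRCm38.p6, chr11:75348183-75348482, plus strand). Capitals mark the 97 bases that the peaks of all 5 lists cover, from position -250 to -154 relative to the Smyd4 start. The summits of the 5 peaks lay at positions -285 to -275, just upstream of the window, within 10 bases of each other.
Smyd4 promoter: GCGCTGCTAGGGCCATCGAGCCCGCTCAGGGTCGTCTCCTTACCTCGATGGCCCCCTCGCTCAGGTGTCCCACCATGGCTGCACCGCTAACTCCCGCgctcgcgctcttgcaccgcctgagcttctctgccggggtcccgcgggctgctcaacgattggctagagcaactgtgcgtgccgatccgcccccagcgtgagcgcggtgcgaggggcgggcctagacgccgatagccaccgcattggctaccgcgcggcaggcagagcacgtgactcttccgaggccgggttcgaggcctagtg

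The Smyd4 window was rich in G and C, at 69.0%, with 34 CpG dinucleotides, against medians of 52.7% and 7 over all windows and 58.3% and 17 over the 73 windows that overlapped a region found in 5 or 6 lists. Searched on both strands, it held 2 CCAAT boxes (CCAAT, in 37.4% of all windows), 1 E-box (CACGTG, 7.15%) and 2 GC boxes (GGGCGG, 35.7%), none of them within the capitals, and no TATA box (TATAAA, 13.6%). None of these motifs contains another. The windows of Cdc20b, 9530057J20Rik, Igfbp7, Spg11 and Ube3a overlapped no peak, and the nearest peak to the window of Ube3a was 196 bases away. Sfi1 and Elp3 had no entry in the promoter table.

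Ube3a (chromosome 7, 59228750 to 59310837, 82.1 kb) had 4, 2 and 5 peaks in cKO 1 to 3, and 1, 4 and 1 in WT 1 to 3. The counts overlapped between genotypes and varied as much within each. A site at 59296399 to 59296685, in the part of the gene that the antisense RNA gene Snhg14 overlaps, was in all 6 lists. It had folds of 6.22, 10.5 and 7.84 in cKO 1 to 3, and 9.27, 9.41 and 15.3 in WT 1 to 3. Its percentiles were 12.4, 32.4 and 29.2 in cKO 1 to 3 and 57.5, 33.2 and 71.2 in WT 1 to 3, so recurrence in every list did not require a strong peak. A site on either side of the annotated start was found in 2 lists each, cKO 1 and cKO 3 upstream and cKO 1 and WT 2 downstream.

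**Figure D2:**
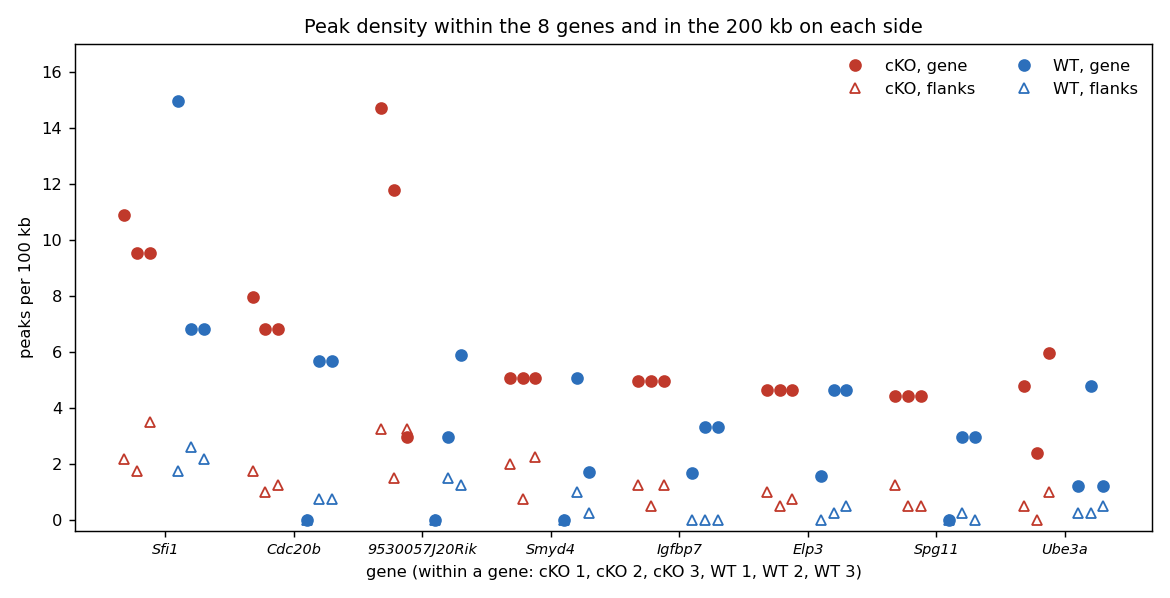
END-seq peaks per 100 kb on the vertical axis for each of the 8 genes, with 1 point a list, in the gene (filled circles) and in the flanks of up to 200 kb on each side (open triangles). Where a gene has a peak, its value lies above the flanks in every list except cKO 3 at 9530057J20Rik, and the WT 1 point of Sfi1, at 14.97 per 100 kb, is the highest of any list at the 8 genes.

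The rule counted peaks in the knockout lists alone, and density in the WT lists was read against all annotated genes. Many sites at the 8 genes were in lists of both genotypes, so the WT values are not independent of the choice. Of the 49943 annotated genes 20261 are at least 10 kb long, as all 8 are, and short genes rarely hold 3 peaks. A gene was called dense in a list when it had at least 3 peaks and at least 5 times the density of the whole list. Sfi1 was called in all 3 WT lists, as were 0.00601% of all genes. Of the 8 genes, 1 was called in WT 1 (Sfi1; 0.018% of all genes), 5 in WT 2 (Sfi1, Cdc20b, Smyd4, Elp3 and Ube3a; 0.154%) and 3 in WT 3 (Sfi1, Cdc20b and Elp3; 0.036%). In at least 2 WT lists, 3 of the 8 were called, against 0.024% of all genes, and the count fell to 1 without WT 2 and to 1 without WT 3. With every list shortened to 1345 peaks, the count was 0 both for at least 2 WT lists and for all 3 cKO lists. In the cKO lists, which chose the genes, 3 were called in cKO 1, 7 in cKO 2 and 7 in cKO 3, where 0.184%, 0.106% and 0.124% of all genes were. Sfi1 and Cdc20b were called in all 3 cKO lists, as were 0.014% of all genes. Without cKO 1, which is the longest list and sets the highest bar, 6 were called in both remaining lists, a count that can only rise when a list is left out. Nothing is read from these cKO shares, since the rule used the same counts.

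A peak in all 6 lists was found at Sfi1, Igfbp7, Elp3 and Ube3a, 4 of the 8, against 0.721% of all genes. The choice of genes partly fixes this comparison, since it needs a peak in each cKO list. Without WT 1 all 8 had a peak in every remaining list. Such a count can only rise when a list is left out, and the matching share of all genes was not measured. Ranked by mean density over the 3 WT lists among the 20261 genes of at least 10 kb, Sfi1 was at rank 3, Cdc20b at 221, Elp3 at 250, 9530057J20Rik at 390, Igfbp7 at 450, Ube3a at 701, Smyd4 at 798 and Spg11 at 1049. Sfi1 averaged 9.52 peaks per 100 kb in WT and Cdc20b 3.79, a gap wider than the SD of either. From Cdc20b down, genes next to each other in this order differed by less than the spread between WT lists. In single lists Sfi1 was at rank 1, 312 and 147 in WT 1 to 3, with 14.97, 6.80 and 6.80 peaks per 100 kb. Its rank of 3 by the mean thus rests largely on WT 1, the shortest list. Among the 364 protein-coding genes of that length with at least 3 peaks in every cKO list, Sfi1 had the highest mean density in cKO, Cdc20b the next, and Smyd4, Igfbp7, Elp3 and Spg11 were at ranks 4 to 7. Spg11, the last of them, had 4.42 per 100 kb, and Adgra3, the next gene not chosen, 4.29. 9530057J20Rik and Ube3a had fewer than 3 peaks in 1 cKO list each. Among all 20261 genes of at least 10 kb, without that minimum, mean cKO density put Sfi1 at rank 29, 9530057J20Rik at 32 and Cdc20b at 195. Smyd4, Igfbp7, Elp3, Spg11 and Ube3a were at ranks 617, 665, 774, 865 and 891, so many genes outside the 8 were denser.

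Density in the flanks is given as a description: the genes were picked for density within their own spans, so a lower value beside them follows from the choice. In the flanks of up to 200 kb on each side, Sfi1 had a mean of 2.46 peaks per 100 kb in cKO and 2.17 in WT, against 9.98 and 9.52 within the gene. Its flanks covered 230 kb in all, because the first peak of chromosome 11 lies close to the gene. Elp3 had 0.750 in cKO flanks and 0.250 in WT flanks, against 4.64 and 3.61 within, and Igfbp7 had 1.00 in cKO flanks and no flanking peak in any WT list, against 4.93 and 2.74 within. At 9530057J20Rik the contrast was smaller in cKO, 2.67 in the flanks against 9.82 ± 6.13 within (SD, n = 3), and in cKO 3 alone the flanks, at 3.25, exceeded the gene, at 2.95. Over whole lists the density ran from 0.512 to 1.12 per 100 kb in cKO and from 0.0505 to 0.581 in WT.

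**Figure D3:**
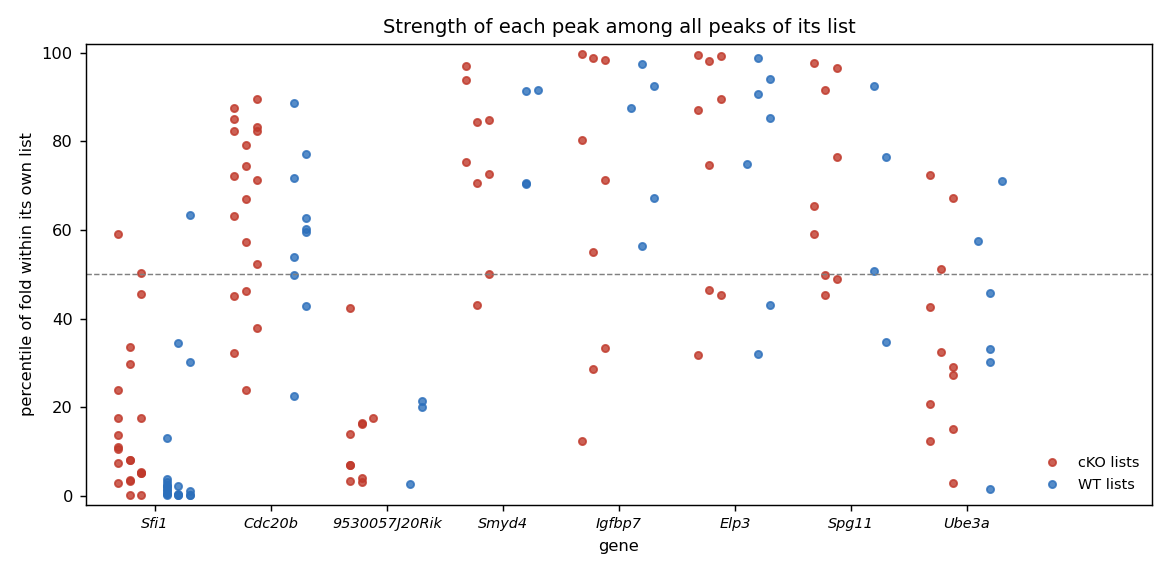
Percentile of each peak's fold within its own list, on the vertical axis, for the peaks of the 8 genes, with a column of points for each list and a dashed line at the median of the list. Sfi1 and 9530057J20Rik lie mostly below 25 and Elp3, Igfbp7, Spg11 and Smyd4 have points above 90.

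Fold was no part of the rule. At Sfi1 and 9530057J20Rik together, 1 of 13, 0 of 11 and 1 of 8 peaks were above the median of the list in cKO 1 to 3, and 0 of 11, 0 of 6 and 1 of 7 in WT 1 to 3. Ube3a was also low in most lists, with 1 of 4, 1 of 2 and 1 of 5 above it in cKO 1 to 3, and 1 of 1, 0 of 4 and 1 of 1 in WT 1 to 3. At the other 5 genes 15 of 19, 11 of 18 and 14 of 18 were above it in cKO 1 to 3, and 2 of 2, 12 of 15 and 10 of 13 in WT 1 to 3. These groups of genes were formed after seeing the values, so no test is given. Peaks in the top 10% of their list were at Elp3, Igfbp7, Spg11 and Smyd4, with 5, 3 and 3 in cKO 1 to 3 and 0, 5 and 3 in WT 1 to 3.

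The peaks at the 8 genes merged into 55 sites. Of these, 4 were in all 6 lists (1 each in Sfi1, Igfbp7, Elp3 and Ube3a), where 1.07% of all merged regions were. Without WT 1, the shortest list, 13 sites were in all remaining lists, and the matching share of all regions was not measured. In 5 or 6 lists were 14 sites, where 8.35% of all regions were. That held for 5 of 7 sites at Cdc20b, 3 of 3 at Elp3, 1 of 3 at Smyd4 and at Igfbp7, 1 of 4 at Spg11, 1 of 7 at Ube3a, 2 of 22 at Sfi1 and 0 of 6 at 9530057J20Rik. Sites in 1 list were 13 of 22 at Sfi1, 3 of 7 at Ube3a and 2 of 6 at 9530057J20Rik, where 57.5% of all regions were. All 3 cKO lists shared 25 of the 55 sites, where 19.7% of all regions were shared, a comparison that the choice of genes partly fixes. The choice also partly fixes the shares in all 6 and in 5 or 6 lists, since such sites need peaks in cKO lists. Sites without any cKO peak numbered 11 of the 55, of which 9 were in Sfi1. Of all 46216 merged regions, 6505 had no cKO peak.

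**Figure D4:**
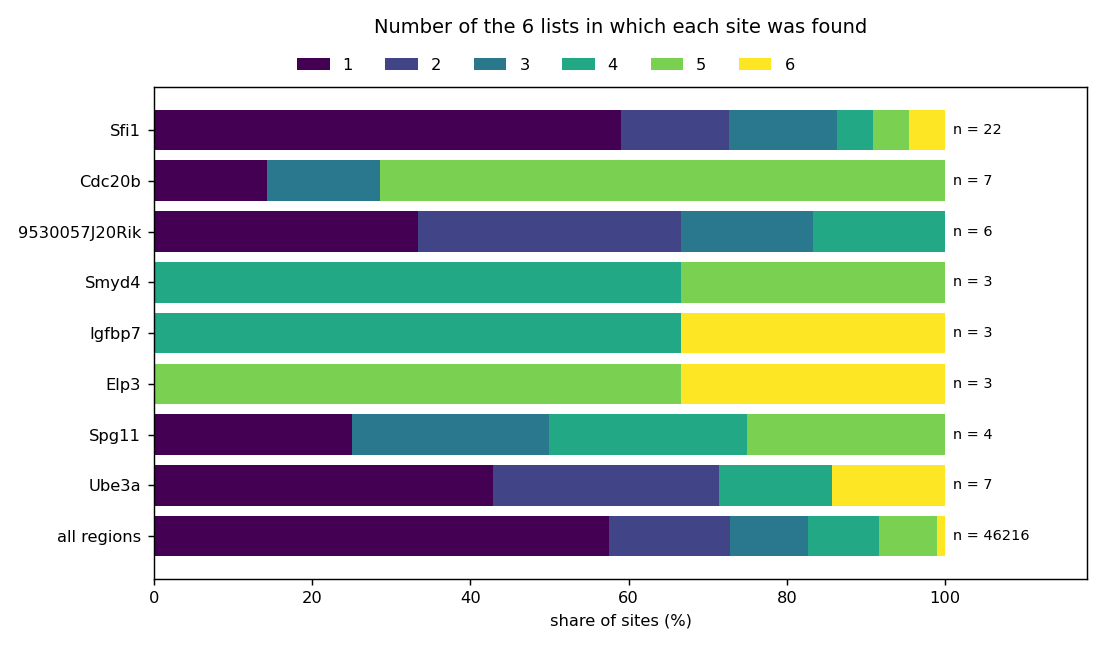
Share of sites in percent, on the horizontal axis, by the number of lists (1 to 6, colours) that held a peak there, for each of the 8 genes and for all 46216 merged regions, with the number of sites at the right. Elp3, Smyd4 and Igfbp7 have sites in 4 lists or more alone, while Sfi1 has 13 of 22 sites in 1 list, a share close to that of all regions.

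The place of the summit, the highest point of a peak, was not used by the rule. For the 18 sites found in 4 to 6 lists at the genes other than Sfi1 and 9530057J20Rik, the distance between the outermost summits had a median of 15 bp, and 17 of the 18 were within 32 bp; the remaining one, near the start of Igfbp7, reached 200 bp. At the strongest sites of Elp3 and Igfbp7 the 6 summits lay within 3 and 4 bp of each other. Over all 8023 regions found in 4 to 6 lists the median was 13 bp and the range from the 10th to the 90th percentile was 5 to 35 bp, so these sites lay mostly within the range of other recurrent regions. The 4 such sites of Sfi1 and 9530057J20Rik spread over 56 to 158 bp, above that range in each case.

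Spacing between neighbouring peaks is tied to density and so to the rule. The median spacing at Sfi1 was 6.21, 5.86 and 6.73 kb in cKO 1 to 3, and 6.79, 11.7 and 5.45 kb in WT 1 to 3. Among all genes with at least 5 peaks in a list, the typical median was 39.6, 80.4 and 52.4 kb in cKO 1 to 3, and 79.2 and 123 kb in WT 2 and WT 3; in WT 1 only 2 genes had that many. The coefficient of variation of spacing, which is low for even spacing, was 0.765, 0.576 and 0.426 at Sfi1 in cKO 1 to 3, and 0.650, 0.527 and 0.770 in WT 1 to 3. At Cdc20b, where peaks cluster, it was 1.11 in each of the 3 cKO lists and 1.32 in WT 2 and WT 3. The typical value over all genes with at least 5 peaks, Sfi1 and Cdc20b among them, was between 0.804 and 0.829 in cKO. It was 0.822 and 0.770 in WT 2 and WT 3.

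Peak width, also outside the rule, was compared between genotypes at the 4 genes with a peak in all 6 lists. At Ube3a the median width was 162, 151 and 182 bp in cKO 1 to 3, and 200, 153 and 272 bp in WT 1 to 3. These values rest on 4, 2 and 5 peaks in cKO 1 to 3 and on 1, 4 and 1 in WT 1 to 3, partly at different sites. At Sfi1 it was 177 ± 26.4 bp over the cKO lists and 206 ± 26.4 bp over the WT lists (SD, n = 3 each). The groups overlapped at both genes. The log2 differences were -0.30 at Ube3a, -0.23 at Sfi1, 0.10 at Igfbp7 and 0.04 at Elp3, with exact permutation p of 0.3, 0.2, 0.8 and 0.8 over 20 assignments, two-sided, and adjusted p of 0.6, 0.6, 0.8 and 0.8. None passed, and 3 samples against 3 cannot go below 0.1. At Igfbp7 and Elp3 the WT 1 width was that of 1 peak.

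Relatives of the 8 genes were read against all protein-coding genes. Among 43 further genes of 8 families and neighbourhoods, 21 had no peak. Of the 32 that are at least 10 kb long, 20 (62.5%) had a peak in at least 1 cKO list and 12 (37.5%) in at least 1 WT list, against 49.8% and 32.6% of all protein-coding genes of that length. None of the 43 was called dense in any list, where 1.11% of those protein-coding genes were, so a count of 0 is close to the background. Of the 5 other Elongator genes, Elp4 alone had peaks in all 3 cKO lists, with 5, 2 and 3 in cKO 1 to 3 and 4 in WT 2. Of the 6 other Igfbp genes, Igfbp2 and Igfbp5 had peaks, in cKO lists alone. The lysine methyltransferase gene Smyd3, which is 566 kb long, had 8, 5 and 8 peaks in cKO 1 to 3, and 0, 5 and 3 in WT 1 to 3. Neither of the other Cdc20 family genes, Cdc20 and Fzr1, had a peak in any list. Herc2, a ubiquitin ligase gene, was the relative with a peak in all 6 lists, with 1, 1 and 1 in cKO 1 to 3 and 1, 2 and 2 in WT 1 to 3. In the chromosome 7 region around Ube3a, Snrpn and Gabrg3 had peaks in every list but WT 1, while Ndn, Magel2 and Mkrn3, short imprinted genes, had none.

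The 5 protein-coding genes not chosen that had the highest mean density in cKO, among those with at least 3 peaks in each cKO list, were Jph2, Adgra3, Smad3, Pla2g4e and Pstpip2, from 5.22 to 3.69 peaks per 100 kb. Jph2, which encodes junctophilin 2, a protein that ties the cell membrane to the calcium store of myocytes, had 4, 3 and 3 peaks in cKO 1 to 3, and 0, 6 and 0 in WT 1 to 3. By Euclidean distance in log2(density + 0.5) over the 6 lists, the gene most like Elp3 and most like Igfbp7 was Smc1a, which encodes a cohesin subunit, with 2, 2 and 2 peaks in cKO 1 to 3 and 1, 2 and 2 in WT 1 to 3, at distances of 0.448 and 0.635. The nearest to Sfi1 was Fam210b, at 1.02, a gene of 10.2 kb with 1 peak in each list. The nearest to 9530057J20Rik was the cardiac troponin gene Tnnt2, at 1.22. Tnnt2 is 15.95 kb long and had 2, 2 and 1 peaks in cKO 1 to 3, and 0, 1 and 1 in WT 1 to 3. For Cdc20b, Smyd4, Spg11 and Ube3a the nearest were Tmem211, Ddx59, Adgra3 and Acss2, at 0.383, 0.430, 0.448 and 0.946. Tmem211 is 13.3 kb long and had 1 peak in each list but WT 1, where it had 0. In a short gene 1 peak gives a high density, so likeness in density need not be likeness in the number of peaks.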

How the data were processed

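END-seq libraries of cardiac myocytes from 3 cKO and 3 WT samples were used, grouped by their titles. The authors deposited 1 peak list a library on mm10, whose headers name for each peak a fold over background (a linear ratio), a score and the −log10 of p and q; the score follows the q. FastQC, SEACR and DiffBind stand in the submitters' processing notes with neither version nor role; the aligner is not stated. All had a q of at most 0.01. Read depth is unknown, and the list lengths are given in the report.

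Peaks on unplaced and mitochondrial sequences were left out. A gene was its span in the RefSeq table (GRCm38.p6) plus 1000 bp each side, and 1 bp of overlap counted. Overlapping peaks of the 6 lists were merged into sites. Coordinates are 1-based. The table has no exons or introns, so these are not stated. Width was compared by exact permutation with Benjamini-Hochberg adjustment over 4 genes. Overlap counting was tested on simulated data. The settings varied were q, list length, gene span, the joining of peaks, the libraries and the replicate block. Genes outside the 8 were named by density, likeness or, for relatives, peaks in at least 5 lists; Elp4, Igfbp2, Igfbp5, Cdc20, Fzr1, Ndn, Magel2 and Mkrn3 were named after their values were seen. The 8 genes and all lists were chosen with earlier results of these data known. The lamin A and IgG libraries were not used here. Python 3.11.15, numpy 2.4.6, pandas 2.3.3 and matplotlib 3.10.9 were used.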

Additional observations from a re-analysis of the deposited data

How the results depend on the processing

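Among 92 alternative values, 80 had the same direction or a count within 1.5 times, 10 lay outside that and 2 had the opposite sign. With every list shortened to 1345 peaks, by fold, 0 of the 8 genes were dense in all 3 cKO lists, 0 in at least 2 WT lists and 2 had a peak in all 6 lists, 2 sites were in all 6 lists and 3 in all cKO lists; weak peaks are removed by construction. Leaving out each library gave 2 to 6, 1 to 3, 4 to 8, 4 to 13 and 25 to 27 for these counts. The log2 width difference was -0.11 to 0.29 at Igfbp7 (below 0 without WT 1) and -0.035 to 0.10 at Elp3 (below 0 without cKO 3); the cause was not tested. The exact test of 3 against 3 cannot pass 0.05, so its p says nothing on stability. With the replicate number as a block, the width differences were by construction the same (-0.23 at Sfi1, -0.30 at Ube3a, 0.10 at Igfbp7 and 0.04 at Elp3), with exact p of 0.5, 0.25, 0.75 and 0.75. The numbers are not stated to pair samples: same-numbered lists correlated at -0.01, -0.20 and -0.15 in density deviations over 5085 genes. How far depth limits weak peaks was not measured.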

Other observations

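Ube3a has a long neighbour with more peaks than any of the 8 genes in every list but WT 1, where Sfi1 had 11. Snhg14 (chromosome 7, 59272737 to 60450177, 1177 kb), the non-coding RNA gene that runs antisense into Ube3a and hosts small nucleolar RNAs, overlaps 38.1 kb of it. Within its span it had 69, 64 and 71 peaks in cKO 1 to 3, and 7, 67 and 39 in WT 1 to 3. WT 2 lay among the cKO lists, so the genotypes overlapped. At most 2 of these peaks per list were inside Ube3a, and the rest were beyond it.

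In the 3 cKO lists and WT 2, most neighbouring Snhg14 peaks were a similar distance apart, though not over the whole gene. The median spacing was 2.54 kb in each of the 3 cKO lists and in WT 2, and 57.7 and 5.02 kb in WT 1 and WT 3, whose peaks were fewer. Between 2.4 and 2.7 kb, a window chosen after these values were seen, lay 56 of 68, 48 of 63 and 54 of 70 spacings in cKO 1 to 3, and 1 of 6, 52 of 66 and 17 of 38 in WT 1 to 3. Over the stretch of the 17 annotated Snord116 copies (59861731 to 59904848) there were 16, 15 and 14 peaks in cKO 1 to 3, and 1, 15 and 5 in WT 1 to 3, and none of them overlapped a small nucleolar RNA itself. Median percentiles of fold were 62.2, 51.1 and 66.9 in cKO 1 to 3, and 64.7, 62.7 and 72.2 in WT 1 to 3, unlike the weak peaks of Sfi1. No source used here says how reads from near-identical copies were placed, and its part in the spacing was not tested.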
